A study of Neogale vison with 6 samples.

Results

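The translation initiation and elongation factors were taken as the rows of the count table whose symbol begins with EIF followed by a digit from 1 to 6, or with EEF followed by 1 or 2. The eIF2α kinases and the eIF4E-binding proteins were left out of this set. The rule found 44 genes among the 24526 of the table, and 43 of them had enough reads to be tested. The remaining gene, EIF4E1B, had 0 counts in every library. The data were 6 RNA-seq libraries of Mv1Lu, an epithelial cell line from mink lung, of which 3 were untreated (control) and 3 underwent cholesterol depletion (CD). CD lasted 16 h and combined 50 μM lovastatin, a statin that inhibits cholesterol synthesis, with 50 μM mevalonate in medium holding 10% lipoprotein-deficient serum (LPDS). The controls received neither the drug nor, by the labels, this serum, so the effects of the statin and of the serum cannot be told apart. They do not say whether the libraries of a group came from separate cultures, so p-values measure only the spread between these libraries, which may be technical.

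Translation begins when eIF2, bound to GTP and the initiator tRNA, joins the small ribosomal subunit together with eIF1, eIF1A, eIF3 and eIF5. The eIF4 factors bind the cap and unwind the leader of the mRNA, eIF2B reloads eIF2 with GTP, and eIF5B joins the large subunit. During elongation, eEF1A delivers aminoacyl-tRNA and is reloaded by the eEF1B subunits, while eEF2 moves the ribosome by a codon. Several mRNAs of this machinery begin with a terminal oligopyrimidine (TOP) tract and are controlled at the level of their translation by mTOR complex 1, which RNA levels do not show.

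Levels are given as counts scaled to a common library total by TMM (CPM), and changes as log2 fold changes of CD against control with their standard error (SE), from the quasi-likelihood test of edgeR fitted over all 12148 tested genes and called at a false discovery rate (FDR) under 0.05. The libraries held between 13473820 and 18633764 reads on genes. Exact permutation of single values over 3 and 3 libraries cannot give a two-sided p below 0.1. The CD libraries varied more than the controls, and the biological coefficient of variation was 0.213 in CD and 0.0852 in the control. As a check on the treatment, the sterol synthesis gene HMGCS1 and the sterol sensor partner INSIG1 rose by log2 fold changes of 3.43 and 1.67 (FDR 4.17e-07 and 8.48e-06, edgeR). Of the epithelial markers, KRT19 was abundant and fell (log2 fold change -1.03, FDR 2.74e-04, edgeR), CLDN4 and DSP rose from low levels (3.55 and 1.46 on the log2 scale, FDR 9.61e-06 and 0.0014), and TJP1 was not called (-0.31, FDR 0.122). EPCAM and CDH1 were close to 0 in all libraries, at no more than 0.287 and 0.432 CPM. The summed level of the 6 epithelial markers found was 1084 to 1210 CPM in the control and 582 to 668 CPM in CD, and KRT19 gave most of it (means of 936 and 458 CPM). That of 8 fibroblast markers was 310 to 387 and 183 to 232 CPM. The endothelial list summed to 206 to 221 and 75.9 to 124 CPM, with TEK giving nearly all of it, while VWF was called higher (FDR 8.82e-04, edgeR) from at most 0.165 CPM to between 0.922 and 1.66 CPM. The leukocyte list, mostly CD68, summed to 5.57 to 6.67 and 21.1 to 26.0 CPM. In the leukocyte list, CD68 and CSF1R were called higher (1.85 and 2.16 on the log2 scale, FDR 2.49e-05 and 3.12e-04, edgeR), CSF1R from a mean of 0.78 to 3.59 CPM, while PTPRC and ITGAM were at or near 0. In the endothelial list PECAM1, CDH5, KDR and CLDN5 were at or near 0. The part of these shifts in the results on translation factors was not tested.

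With 6 libraries, few translation factors were called as changed under CD, and those that were called did not go one way. Of the 43 tested members, 4 were higher and 8 lower in CD, or 9.30% and 18.6%, against 24.8% and 22.9% of all tested genes. In either direction this made 27.9%, against 47.7% of all tested genes. The higher genes were EEF1A2, EIF4E3, EIF1B and EIF1, and the lower genes were EEF1AKNMT, EEF1AKMT4, EIF3B, EIF4G1, EIF2B3, EIF4A3, EIF4H and EIF4A1. The groups did not overlap for 21 members (48.8%), against 58% of all tested genes. The median log2 fold change was 0.07 over the members and 0.06 over all tested genes. The median size of the change, without its sign, was 0.24 on the log2 scale for the members and 0.47 for all tested genes, and 4 members (9.30%) changed more than 2-fold in either direction, against 20.5% of all tested genes. Without CD replicate 3, the counts became 7 higher and 16 lower members (16.3% and 37.2%), against 29.3% and 29.2% of all genes tested in that fit. All 12 members called with 6 libraries were among these 23 (53.5%, against 58.6% of all genes in that fit).

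**Figure D1:**
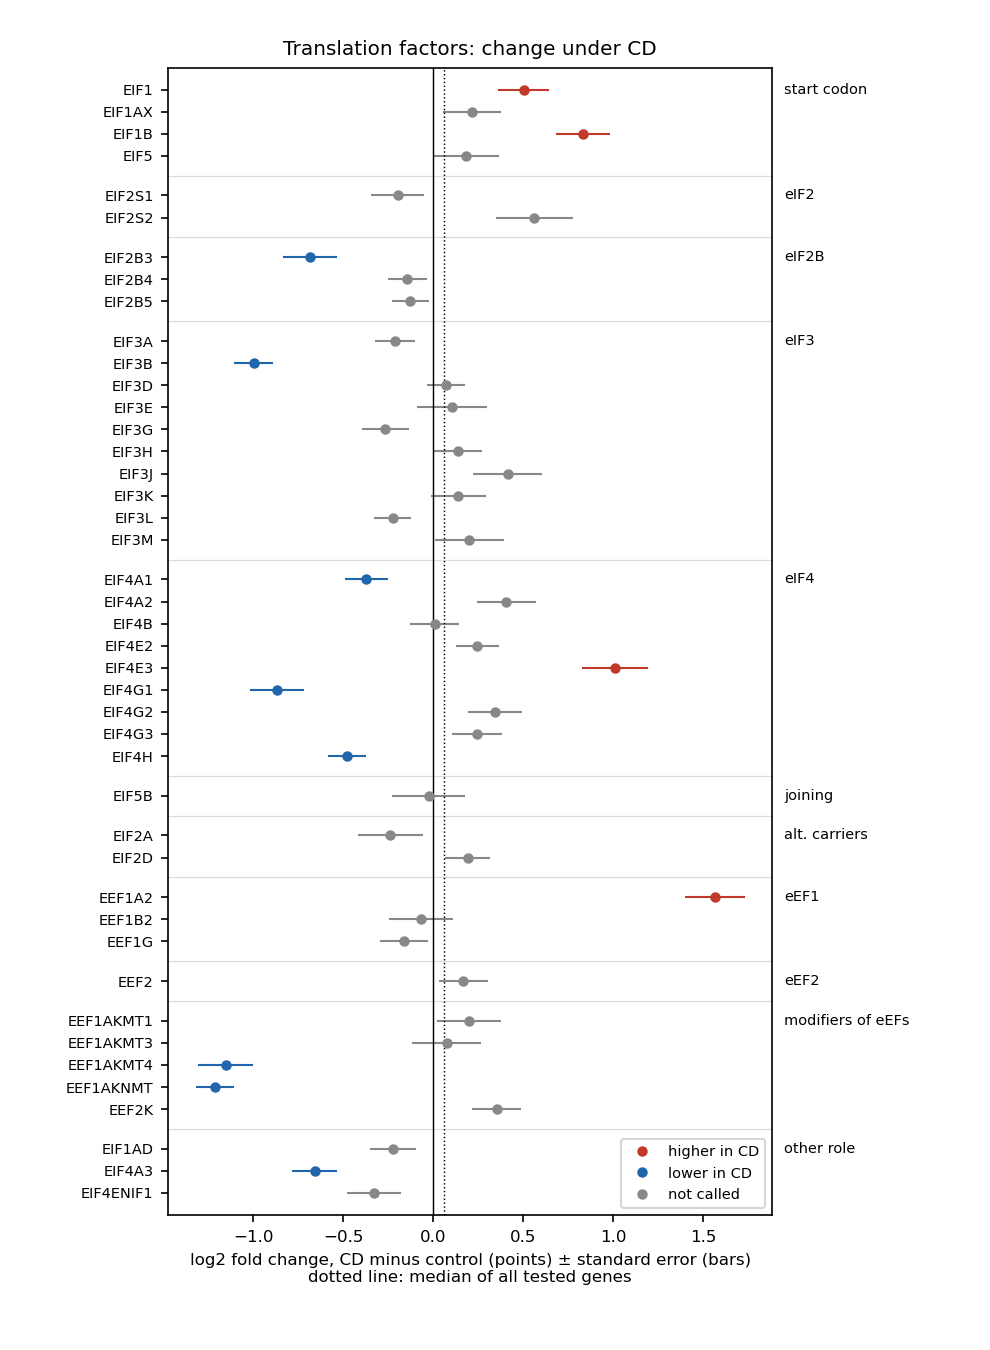
Log2 fold change of CD against control (horizontal axis) for the 43 tested factors, grouped by complex, with bars of 1 standard error from edgeR and the median of all tested genes as a dotted line. The 4 factors called higher (red) and the 8 called lower (blue) are spread over 7 of the 11 groups, and the remaining 31 lie between -0.33 and 0.56.

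The members together took 1.64% to 1.696% of the gene reads in the control libraries and 1.51% to 1.61% in the CD libraries. Their summed level was 16807 ± 389 CPM in control and 15583 ± 212 CPM in CD (SD, n = 3 each), a ratio of 0.927, with every CD library below every control library. These sums are counted in reads and are not corrected for transcript length, and EEF2 alone gave 31.3% of them. They leave out factors that were not found, such as EEF1A1, and those under another symbol or none, such as EIF6 and EIF3I. Among the larger groups, the summed level of the eIF4 factors was 5360.0 ± 184 CPM in control and 4111 ± 186 CPM in CD, and that of the eIF3 subunits 2835 ± 6.93 and 2437 ± 229.9 CPM. The lower eIF4 sum came mostly from the abundant EIF4A1 (means of 2271 and 1755 CPM) and EIF4G1 (1667 and 913 CPM), whereas 6 of the 9 tested eIF4 factors had a log2 fold change above 0 and their median was 0.24. The lower eIF3 sum came mostly from EIF3B (means of 657 and 329 CPM), whereas the median log2 fold change of the 10 tested subunits was 0.09. The summed level of eIF1, eIF1B, eIF1A and eIF5 went the other way, from 557 ± 20.4 to 771 ± 125 CPM.

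The factors that select the start codon held 2 of the 4 higher members, or 2 of 4 tested in this group, against 24.8% of all tested genes. EIF1 (ENSNVIG00000011568) encodes the factor that keeps the scanning ribosome open until a start codon is met. Its level was 413, 427 and 417 CPM in control replicates 1, 2 and 3 and 512, 548 and 719 CPM in CD replicates 1, 2 and 3. The groups did not overlap, and the log2 fold change was 0.50 (SE 0.14, FDR 0.0148, edgeR). The value of CD replicate 3 was the highest, and without it the log2 fold change was 0.30 (FDR 0.0154, edgeR). The call was lost without control replicate 1 or 3, with an FDR of up to 0.0627. EIF1B (ENSNVIG00000024423), a close relative of EIF1, was at 29.1, 29.1 and 30.03 CPM in the control and at 44.3, 49.6 and 62.8 CPM in CD. It rose by 0.83 on the log2 scale (SE 0.15, FDR 0.00133, edgeR), and its level was again highest in CD replicate 3. EIF1AX, which occupies the ribosomal A site during scanning, and EIF5, which makes eIF2 hydrolyze its GTP, were not called, with log2 fold changes of 0.21 and 0.18 (FDR 0.297 and 0.44, edgeR).

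For eIF2 and its exchange factor eIF2B, an exchange subunit fell while the α and β subunits of eIF2 were not called. The γ subunit, EIF2S3, was not found by symbol or description. EIF2S2, the β subunit of eIF2, was at 90.1, 102 and 70.9 CPM in control and 106, 105 and 178 CPM in CD libraries. All 3 CD values were above the control values, but the change of 0.56 on the log2 scale (SE 0.22) missed the threshold (FDR 0.055, edgeR). DESeq2 did call it (FDR 0.0389), as did edgeR without CD replicate 1 (FDR 0.0272). Without CD replicate 3 the change was 0.23 (FDR 0.115) and without control replicate 3 it was 0.42 (FDR 0.207, edgeR). EIF2S1, the α subunit, which carries the serine phosphorylated under stress, had a log2 fold change of -0.20 (FDR 0.296, edgeR). Without CD replicate 3 it was called lower, with a log2 fold change of -0.35 (FDR 0.011, edgeR). EIF2B3 (ENSNVIG00000018530), the γ subunit of eIF2B, was at 34.5, 29.5 and 27.9 CPM in control and 18.1, 18.1 and 21.0 CPM in CD libraries, without overlap. The log2 fold change was -0.69 (SE 0.15, FDR 0.00371, edgeR). The δ and ε subunits moved less. EIF2B4 had a log2 fold change of -0.15 (FDR 0.297). EIF2B5, the catalytic subunit, was at 151, 163 and 165 CPM in control and 142, 152 and 143 CPM in CD (log2 fold change -0.13, FDR 0.331). The α subunit of eIF2B is listed under another symbol, EI2BA (ENSNVIG00000021292), and so lies outside the rule. Its level was 24.0, 28.0 and 26.0 CPM in control and 14.7, 14.97 and 16.6 CPM in CD libraries, with a log2 fold change of -0.76 (SE 0.14, FDR 0.00179, edgeR). Thus the α and γ subunits were lower and the δ and ε subunits were not called, while the β subunit was not found by symbol or description.

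The eIF3 complex is the scaffold that binds the small subunit and bridges it to eIF4G. It had 1 called member among the 10 subunits tested, where 47.7% of all tested genes were called. EIF3B (ENSNVIG00000003889), a core subunit, was at 676, 624 and 671 CPM in control and 315, 345 and 327 CPM in CD libraries. The 3 CD values lay close together, and the level in CD was 0.501 times that in control (log2 fold change -0.997, SE 0.11, FDR 5.64e-05, edgeR). The other 9 subunits were not called, with log2 fold changes between -0.27 and 0.41, and the median over the 10 subunits was 0.09. EIF3A, the largest core subunit, EIF3G and EIF3L had CD values below all control values but did not pass the test, with log2 fold changes of -0.22, -0.27 and -0.23 (FDR 0.136, 0.12 and 0.0888, edgeR). EIF3G was at 402, 391 and 409 CPM in control and 281, 331 and 387 CPM in CD, so that CD replicate 3 nearly reached the control. EIF3J, which is loosely attached to the complex, had the highest value of 0.41 (FDR 0.101), and 0.15 without CD replicate 3 (FDR 0.329, edgeR). Its level was 39.3, 42.7 and 31.6 CPM in control and 44.5, 41.5 and 65.1 CPM in CD libraries, with overlap. EIF3D, EIF3E, EIF3H, EIF3K and EIF3M lay between 0.07 and 0.20 with overlapping groups. Rows that carry no symbol but are described as EIF3F and EIF3I had log2 fold changes of 0.12 and 0.03 (FDR 0.525 and 0.887, edgeR), and the core subunit EIF3C was not found by symbol or description. Without CD replicate 3, EIF3A, EIF3G and EIF3L were also called lower, at log2 fold changes of -0.26, -0.42 and -0.28 (FDR 0.0394, 0.00107 and 0.0277, edgeR), and the median of the subunits was -0.12. In that fit, 29.2% of all tested genes were lower.

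**Figure D2:**
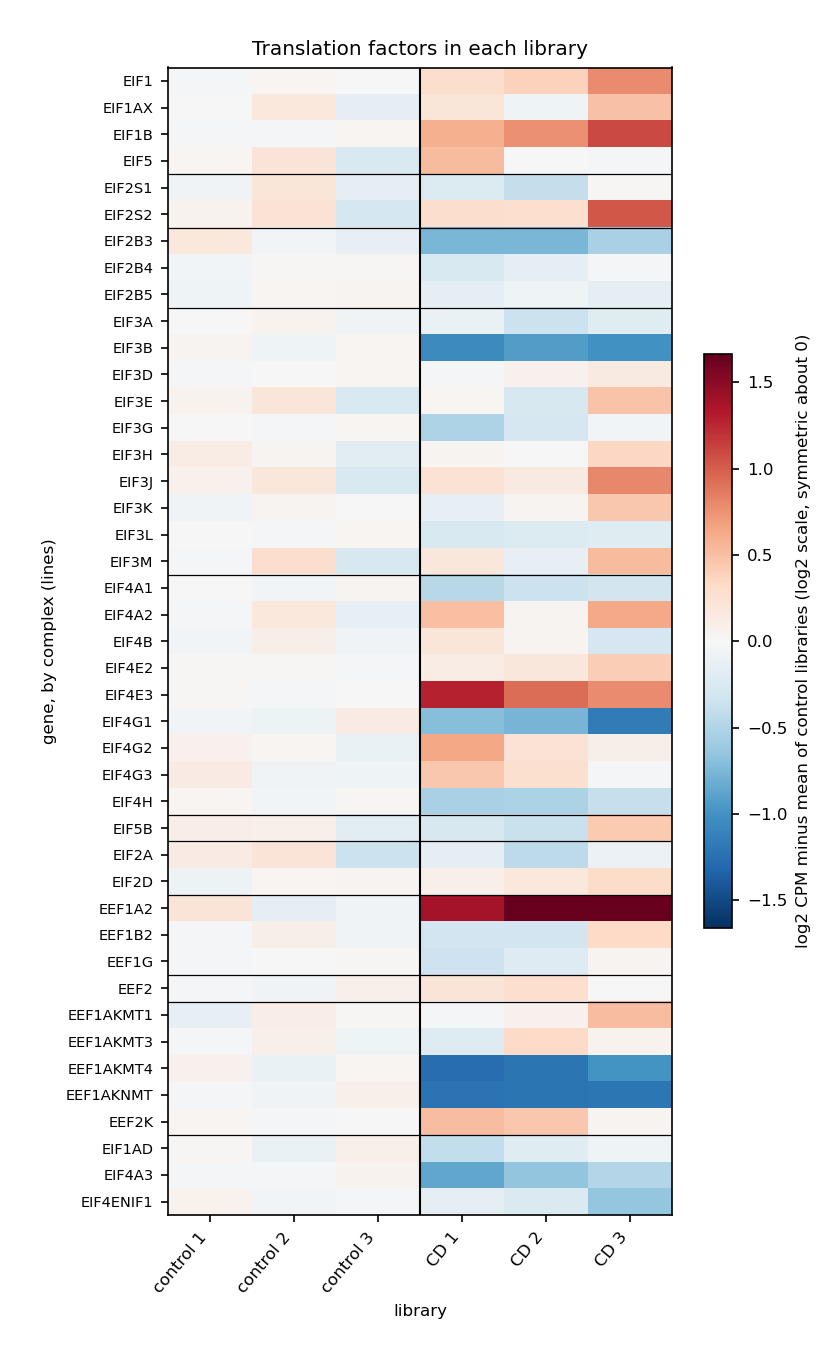
Log2 CPM of each tested factor in each library, relative to the mean of the control libraries (red higher, blue lower), with lines between complexes. EIF3B, EIF4G1, EEF1AKMT4 and EEF1AKNMT are lower in all 3 CD libraries, and many factors are higher in CD replicate 3 than in the other CD libraries.

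The eIF4 factors, which recruit the mRNA, held 3 lower members and 1 higher member among 9 tested, a share near the 47.7% of all tested genes that were called. EIF4G1 (ENSNVIG00000014281) encodes the scaffold that joins the cap-binding protein, the helicase and eIF3. It was at 1607, 1561 and 1832 CPM in control and 1016, 977 and 746 CPM in CD libraries, well apart. The change on the log2 scale was -0.87 (SE 0.15, FDR 9.44e-04, edgeR). The helicase gene EIF4A1 (ENSNVIG00000003608) was at 2279, 2193 and 2342 CPM in control and 1653, 1778 and 1833 CPM in CD, also without overlap. Its log2 fold change was smaller, at -0.37 (SE 0.12, FDR 0.0256, edgeR). This call was lost with the replicate number as a block (FDR 0.0912), and also on leaving out any control library or CD replicate 2 (FDR 0.0578 to 0.1004). EIF4H (ENSNVIG00000005144), which stimulates the helicase, was at 534, 504 and 529 CPM in control and 360.0, 363 and 399 CPM in CD. It fell by 0.48 on the log2 scale (SE 0.11, FDR 0.00445, edgeR). The higher member, EIF4E3 (ENSNVIG00000002988), encodes an atypical relative of the cap-binding protein eIF4E. It was at 6.88, 6.65 and 6.78 CPM in control and 16.3, 12.8 and 11.7 CPM in CD, or 1.01 higher on the log2 scale (SE 0.19, FDR 0.00146, edgeR). EIF4E itself was not found by symbol or description.

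The relatives of these factors were not called with 6 libraries. EIF4A2, the other cytoplasmic helicase gene, had a log2 fold change of 0.41 (FDR 0.0679), EIF4G3 of 0.24 (FDR 0.181) and EIF4G2, which lacks the eIF4E-binding region, of 0.34 (FDR 0.0881, edgeR). EIF4G2 was at 424, 413 and 374 CPM in control and 630.1, 475 and 429 CPM in CD libraries, so that all CD values were above the control values and CD replicate 3 was the lowest of them. EIF4A2 was at 43.0, 49.7 and 39.8 CPM in control and 62.2, 45.5 and 67.8 CPM in CD, and only CD replicate 2 fell within the control range. It was called without CD replicate 2 (0.53, FDR 0.0274), while without CD replicate 3 the log2 fold change was 0.25 (FDR 0.0958) and without control replicate 3 it was 0.33 (FDR 0.226, edgeR). EIF4G3 was at 162, 141 and 140.1 CPM in control and 202, 178 and 145 CPM in CD libraries, with CD replicate 3 among the controls. EIF4E2, which competes for the cap, had 0.24 (FDR 0.116), and EIF4B, another cofactor of the helicase, had 0.01 (FDR 0.974). The level of EIF4B was 226, 249.6 and 224 CPM in control and 269, 241 and 193 CPM in CD libraries, so that the CD values lay on both sides of the controls. Without CD replicate 3, EIF4G2 and EIF4G3 were called higher, with log2 fold changes of 0.42 and 0.32 (FDR 0.0017 and 0.00997, edgeR).

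**Figure D3:**
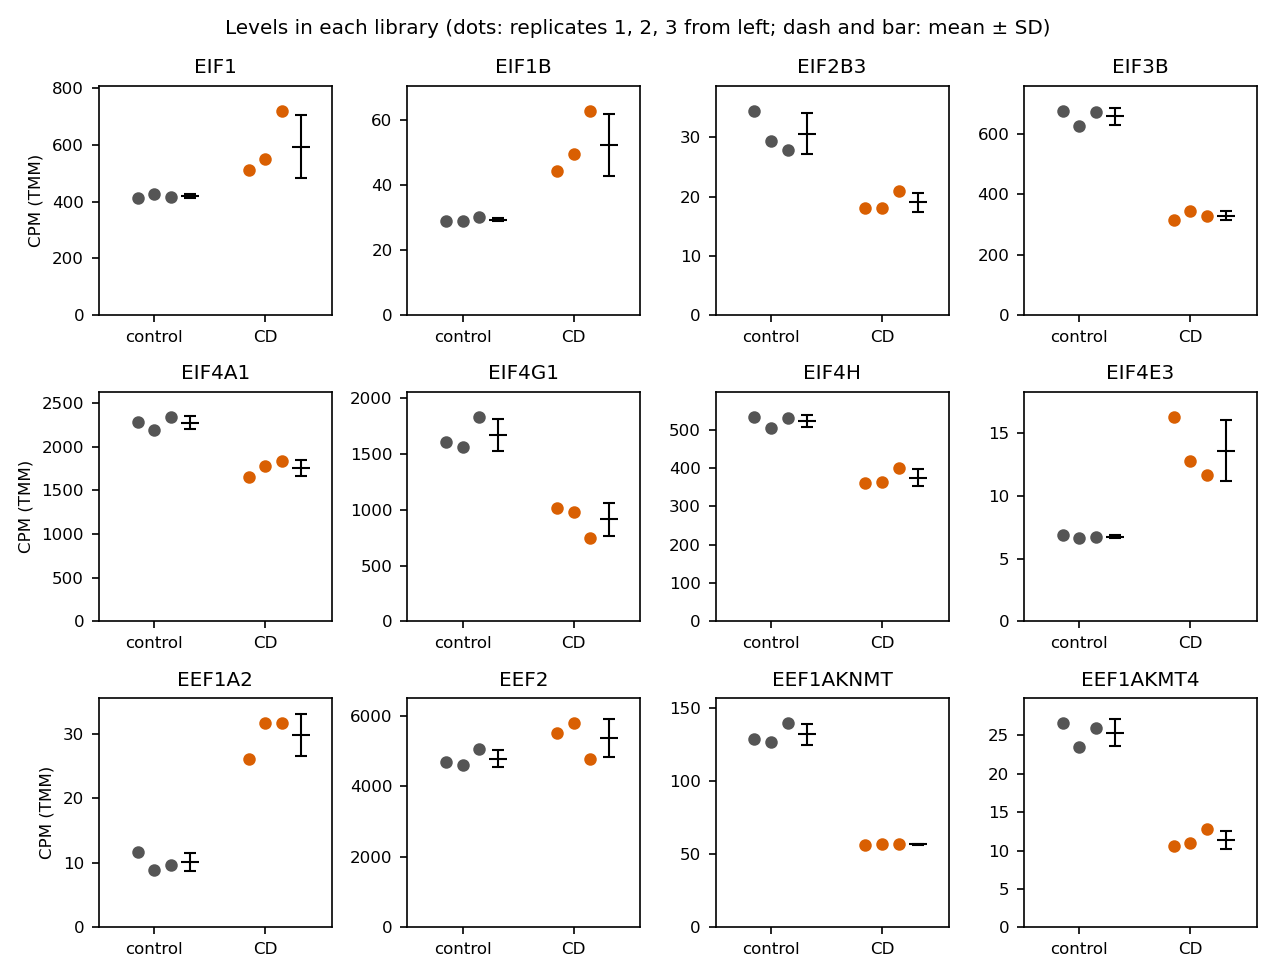
CPM in each library (dots, replicates 1, 2 and 3 from left to right) with the mean and SD of 3 libraries, for EEF2 and 11 of the 12 called factors (all but EIF4A3). The vertical axes start at 0 and differ between panels. The control and CD dots are apart for all panels but EEF2, for which CD replicate 3 lies among the controls.

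Whether related factors changed by different amounts was tested on the log2 ratio of their CPM within each library, for 6 pairs in which both genes were tested. The ratio also holds the lengths of both transcripts, so that only its change between groups is read here. The ratio of EIF4G1 to EIF4G2 was 1.92, 1.92 and 2.29 in control and 0.69, 1.04 and 0.80 in CD libraries. It was lower by 1.20 on the log2 scale in CD, and the groups did not overlap. For EIF4G1 to EIF4G3 the difference was -1.11, for EIF4A1 to EIF4A2 it was -0.76, and for EIF1 to EIF1B it was -0.33, each without overlap. These 4 pairs reached the smallest p that the design allows (exact permutation test over libraries, two-sided p = 0.1, and 0.15 after Benjamini-Hochberg adjustment over 6 pairs), which cannot pass 0.05. For EIF2A to EIF2D, alternative carriers of the initiator tRNA, and for EIF4B to EIF4H, the differences were -0.42 and 0.48 with overlapping groups (exact permutation p = 0.2 each, adjusted 0.2). With each library left out in turn, no difference changed its sign, and that of EIF4G1 to EIF4G2 stayed between -1.30 and -1.08.

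**Figure D4:**
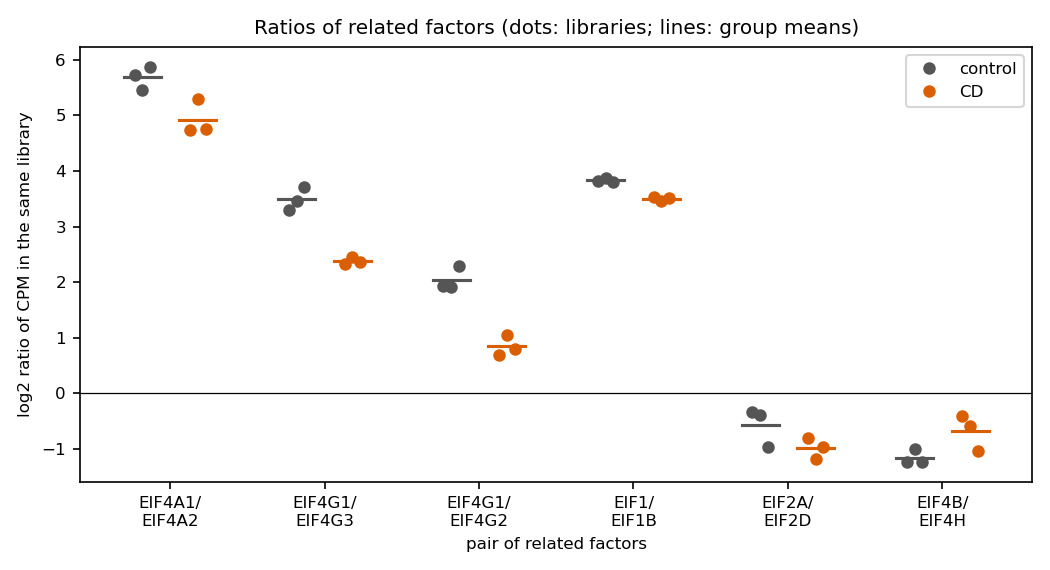
Log2 ratio of the CPM of related factors in the same library (vertical axis) for 6 pairs, with dots for the libraries and lines for the group means. The ratios of EIF4G1 to EIF4G3 and to EIF4G2 are more than 1 lower on the log2 scale in CD, and the groups overlap for the last 2 pairs.

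EIF5B and the alternative tRNA carriers EIF2A and EIF2D were not called with 6 libraries. EIF5B, the GTPase that joins the large subunit, was at 102, 99.5 and 82.7 CPM in control and 78.5, 72.9 and 127 CPM in CD libraries. CD replicates 1 and 2 were below all controls and CD replicate 3 above them, and the log2 fold change was -0.03 (FDR 0.926, edgeR). Without CD replicate 3 it was -0.36 and called lower (FDR 0.00668). EIF2D was at 37.6, 40.8 and 41.3 CPM in control and 42.1, 45.0 and 49.4 CPM in CD, with a log2 fold change of 0.19 (FDR 0.231), and EIF2A had -0.24 (FDR 0.299, edgeR). EIF2A was at 29.5, 30.9 and 21.0 CPM in control and 24.0, 19.8 and 25.1 CPM in CD, with overlap. EIF6, which keeps the large subunit from joining too early, is listed as IF6 and lies outside the rule. It was at 381, 378 and 407 CPM in control and 243, 289 and 343 CPM in CD libraries. It was called lower (-0.42 on the log2 scale, SE 0.14, FDR 0.03, edgeR), but not in 5 of 14 alternative settings, which were those that left out any control library or CD replicate 1 or 2. EIF5A2, listed as IF5A2, had 0.18 (FDR 0.643, edgeR).

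Among the elongation factors, EEF1A2 (ENSNVIG00000019476) had the highest log2 fold change of all members. It encodes a form of eEF1A that is known mainly from muscle and neurons. Its level was 11.7, 8.96 and 9.64 CPM in control and 26.1, 31.7 and 31.6 CPM in CD libraries. The increase was 2.95-fold, or 1.56 on the log2 scale (SE 0.17, FDR 5.07e-05, edgeR), and it stayed between 1.48 and 1.67 in 14 alternative settings. The closely similar EEF1A1 was not found by symbol or description, and how reads that match both genes were counted is not known. The abundant subunits of the exchange complex were not called. EEF1G was at 1477, 1501 and 1525 CPM in control and 1183, 1298 and 1542 CPM in CD (log2 fold change -0.16, FDR 0.334, edgeR). EEF1B2, the nucleotide exchange subunit, was at 399, 435 and 391 CPM in control and 328, 327 and 515 CPM in CD (log2 fold change -0.07, FDR 0.773). For both genes CD replicates 1 and 2 were below the controls and CD replicate 3 was above them, and without CD replicate 3 both were called lower, at -0.31 and -0.36 (FDR 0.0242 and 0.00514, edgeR). EEF2, the translocase, was at 4680.2, 4609 and 5059 CPM in control and 5522, 5811 and 4769.8 CPM in CD, with a log2 fold change of 0.17 (SE 0.14, FDR 0.339, edgeR).

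The enzymes that modify the elongation factors held the members that fell most. EEF1AKNMT (ENSNVIG00000024960), which methylates the N terminus and a lysine of eEF1A, was at 129, 127 and 140.3 CPM in control and 56.5, 57.1 and 57.4 CPM in CD libraries. The CD values lay close together, and the log2 fold change was -1.21 (SE 0.11, FDR 1.40e-05, edgeR). EEF1AKMT4 (ENSNVIG00000015318), another lysine methyltransferase of eEF1A, was at 26.7, 23.4 and 26.0 CPM in control and 10.6, 10.9 and 12.8 CPM in CD. Its log2 fold change was -1.15 (SE 0.15, FDR 1.98e-04, edgeR), and its reads may include transcripts that run into the neighbouring ECE2, since such readthrough is known for this locus. The methyltransferases EEF1AKMT1 and EEF1AKMT3 were not called (log2 fold changes 0.20 and 0.07, FDR 0.381 and 0.776). EEF2K, the kinase that inhibits eEF2, was at 80.3, 77.3 and 79.0 CPM in control and 112, 108 and 81.3 CPM in CD libraries. All CD values were above the controls, but the log2 fold change of 0.35 was not called (SE 0.14, FDR 0.0586, edgeR). It was called with upper-quartile scaling (FDR 0.0421) and, at 0.45, without CD replicate 3 (FDR 3.76e-04).

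A few members carry a factor's name but have their main role elsewhere. EIF4A3 (ENSNVIG00000014717), the helicase of the exon junction complex, was at 341, 341 and 363 CPM in control and 191, 222 and 249 CPM in CD libraries, and fell by 0.66 on the log2 scale (SE 0.12, FDR 0.00159, edgeR). EIF4ENIF1, which carries eIF4E into the nucleus and to P-bodies, had a log2 fold change of -0.33 (FDR 0.0981, and 0.0476 without CD replicate 1), with CD values below all controls. EIF1AD had -0.22 (FDR 0.172, edgeR), and -0.34 without CD replicate 3 (FDR 0.00997).

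CD replicate 3 often lay apart from the other CD libraries. It held the highest CD value for 29 of the 43 tested members (67.4%), against 40.1% of all tested genes, and CD replicate 1 held the lowest for 22 (51.2%), against 35.2%. The largest upward departures of CD replicate 3 from the mean log2 level of CD replicates 1 and 2 were those of EIF2S2 (0.75), EIF5B (0.75), EEF1B2 (0.65), EIF3J (0.60) and EIF3E (0.60). The largest downward departures were those of EIF4ENIF1 (-0.45), EEF2K (-0.44), EIF4G1 (-0.42), EIF4B (-0.40) and EIF4G3 (-0.39). The unmapped reads made up 9.37% of this library and 3.54% and 4.33% of CD replicates 1 and 2. In control replicates 1, 2 and 3 they made up 18.4%, 13.6% and 4.25%. All reads in rows that name no gene made up 41.4% of CD replicate 3, and 31.1% and 31.8% of CD replicates 1 and 2. For control replicates 1, 2 and 3 this share was 47.2%, 41.4% and 29.3%. The part of these differences between libraries in the departures was not tested.

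Of 10 translation factors written down as carriers of a TOP tract, 7 were found by symbol, all tested, namely EEF1B2, EEF1G, EEF2, EIF3A, EIF3E, EIF3H and EIF4B. None was called by edgeR, DESeq2 or limma-voom, and none had an unadjusted edgeR p under 0.05, against 47.7% of all tested genes called by edgeR. With 6 libraries their log2 fold changes lay between -0.22 and 0.17, with a median of 0.01. With CD replicate 3 left out, 3 of the 7 (EEF1B2, EEF1G and EIF3A) were called lower, against 29.2% of all genes in that fit.

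Other genes of translation were followed in a list of 40 regulators and partners. By symbol, 35 of them were found, and 33 had enough reads for the test. Of these, 7 were higher and 8 lower in CD, or 21.2% and 24.2%, against 24.8% and 22.9% of all tested genes. Together they made 45.5%, close to the 47.7% of all tested genes. The largest change was that of EIF2AK3 (PERK), the eIF2α kinase of the endoplasmic reticulum. It was at 11.1, 10.6 and 10.7 CPM in control and 62.3, 48.4 and 47.3 CPM in CD libraries, a 4.88-fold increase (2.29 on the log2 scale, SE 0.16, FDR 2.77e-06, edgeR). EIF2AK4 (GCN2), the kinase that senses uncharged tRNA, rose by 0.87 (FDR 0.00305), EIF2AK2 (PKR), the kinase that senses double-stranded RNA, was lower at -0.59 (FDR 0.0274), and EIF2AK1, the heme-regulated kinase, was not called (0.07, FDR 0.675, edgeR). The call of EIF2AK2 was lost in 4 of 14 alternative settings, namely total counts and the omission of control replicate 1, control replicate 2 or CD replicate 2. The phosphatase subunit PPP1R15B had -0.09 (FDR 0.669).

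Among the proteins that restrain eIF4, PDCD4, which binds and inhibits eIF4A, was at 35.3, 39.5 and 31.6 CPM in control and 89.5, 71.0 and 89.5 CPM in CD. It rose by 1.24 on the log2 scale (SE 0.14, FDR 8.18e-05, edgeR). The eIF4E-binding proteins EIF4EBP1, EIF4EBP2 and EIF4EBP3 were not called, with log2 fold changes of -0.30, -0.24 and -0.10 (FDR 0.125, 0.461 and 0.7, edgeR). All 3 tested genes of the poly(A)-binding group were called, where 47.7% of all tested genes were. PAIP2, which displaces the poly(A)-binding protein from RNA, was at 23.2, 24.5 and 17.5 CPM in control and 48.5, 44.8 and 62.7 CPM in CD (log2 fold change 1.26, FDR 3.00e-04). PAIP1, which stimulates translation, rose by 0.67 (FDR 0.0114), and PABPC4, a poly(A)-binding protein, fell by 0.55 on the log2 scale (FDR 0.00146, edgeR). PAIP1 was not called without control replicate 3 (FDR 0.0628, edgeR).

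**Figure D5:**
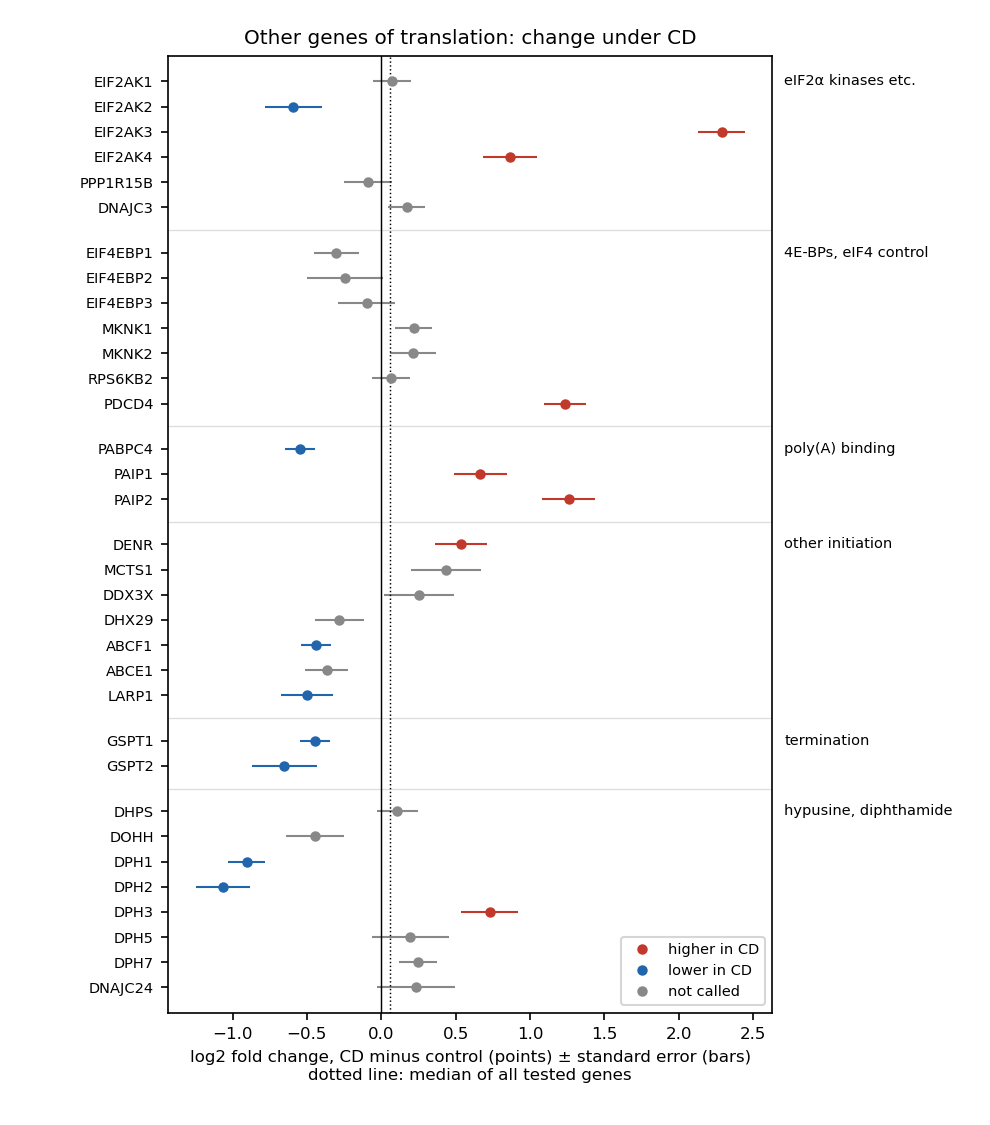
Log2 fold change of CD against control (horizontal axis) with bars of 1 standard error for the 33 tested regulators and partners of translation, by group, on the same fit as the factors. EIF2AK3 has the highest value at 2.29, and the genes called higher (red) and lower (blue) occur together in 4 of the 6 groups.

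The other lists held 3 higher or lower genes or fewer each. Both tested termination factors fell, where 22.9% of all tested genes were lower: GSPT1, the GTPase of release, had a log2 fold change of -0.45 and GSPT2, its relative, of -0.65 (FDR 0.00481 and 0.0307, edgeR), with GSPT2 not called in 5 of 14 settings, namely the replicate block and the omission of control replicate 1 or 2 or CD replicate 1 or 2. Among 7 other tested initiation proteins, DENR, a re-initiation factor, was higher (0.54, FDR 0.028), and LARP1, which binds TOP mRNAs, and ABCF1 were lower (-0.50 and -0.44, FDR 0.0409 and 0.00573, edgeR), so that 3 of 7 were called, near the 47.7% of all tested genes. The change of DENR was 0.29 without CD replicate 3 (FDR 0.0357, edgeR), and its call was lost without control replicate 1 or 3, and that of LARP1 in 5 of 14 settings, namely upper-quartile scaling, total counts and the omission of any control library. Diphthamide is a modified histidine of eEF2. Of its enzymes, DPH1 was at 40.5, 40.0 and 44.2 CPM in control and 21.3, 22.1 and 23.2 CPM in CD libraries, and DPH2, its partner in the first step, at 23.3, 23.6 and 31.6 CPM and 13.9, 13.2 and 10.4 CPM. Their log2 fold changes were -0.91 and -1.06 (FDR 2.67e-04 and 0.00101, edgeR). DPH3, an electron donor for that step, rose by 0.73 (FDR 0.0113, edgeR), a call that was lost without control replicate 1 (FDR 0.0619). The other tested diphthamide genes DPH5, DPH7 and DNAJC24 were not called (0.20, 0.25 and 0.23 on the log2 scale, FDR 0.566, 0.14 and 0.495, edgeR). DHPS and DOHH, which make the hypusine of eIF5A, were not called (log2 fold changes 0.11 and -0.45, FDR 0.537 and 0.083, edgeR).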

How the data were processed

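Per the study's methods, poly(A) RNA was sequenced from Nextera XT libraries, and reads were trimmed with fastp 0.20.1 and aligned to a mink assembly (NNQGG.v01) with STAR 2.7.2a. The counting program and its strand setting are not given in the sources used here, so overlapping, antisense and near-identical genes are uncertain. The authors deposited raw counts of reads per gene for 6 libraries. The 4 rows that name no gene (29.3% to 47.2% of a library's reads) were left out. The deposited normalized expression files were not used, because when matched by gene identifier their values did not follow the counts (Spearman correlation between -0.00674 and 3.43e-05).

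The fit used edgeR 4.0.16 (R 4.3.3) with filterByExpr (minimum count 10, minimum total 15), TMM, glmQLFit (robust) and glmQLFTest over 12148 genes, with the condition as the only term and Benjamini-Hochberg adjustment. The standard error is the log2 fold change divided by the square root of F. The same steps were run on simulated counts in which each gene had the same spread in both groups. The wider spread of the CD libraries was thus not part of that test. Alternatives were DESeq2 1.42.0, limma-voom (limma 3.58.1), other scalings and filters, an FDR of 0.01, the replicate number as a block and the omission of each library. The median standard error over all tested genes was 0.18. Values in every library are given, in each group of factors, for up to 3 called members with the largest change, for the most abundant member and for members of tested pairs, up to 3 called companion genes are named in each list, and other members shown in full were chosen after their values were seen. The members, gene lists and pairs were chosen with earlier results of these data known. No sequences or coordinates are given, since no reference sequence of the files' build was used here. Some genes of the treatment check and marker lists are not reported here.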

Additional observations from a re-analysis of the deposited data

How the results depend on the processing

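Of the 12 called members, 3 of the 4 higher and 7 of the 8 lower were called in each of 14 alternative settings, and the exceptions were EIF1 and EIF4A1. The number of higher members was 3 to 7 and that of lower members 7 to 16 when each library was left out, the highest numbers being those without CD replicate 3. The share of all tested genes called in these fits ran from 35.9% without control replicate 3 to 58.6% without CD replicate 3. Over these omissions, the median log2 fold change lay between -0.084 and 0.093 for all members, -0.063 (without CD replicate 3) and 0.29 for eIF2, -0.24 and -0.10 for eIF2B, -0.12 and 0.14 for eIF3, 0.12 and 0.25 for the eIF4 factors, and -0.31 and 0.054 for eEF1, and the number of lower companion genes between 5, without control replicate 1 or 2, and 12. Members near 0 changed their sign when a library was left out and were called in no fit other than those of EIF5B and EEF1B2 without CD replicate 3. Their log2 fold changes lay between -0.014 and 0.29 (EIF5), -0.0059 and 0.12 (EIF3D), -0.16 and 0.23 (EIF3E), -0.011 and 0.20 (EIF3H), -0.084 and 0.27 (EIF3K), -0.018 and 0.35 (EIF3M), -0.095 and 0.092 (EIF4B), -0.36 and 0.094 (EIF5B), -0.36 and 0.054 (EEF1B2), -0.012 and 0.31 (EEF1AKMT1), and -0.10 and 0.21 (EEF1AKMT3). EIF4B also changed its sign with DESeq2 (-0.017), limma-voom (-0.0062), DESeq2 size factors (-0.017) and the replicate block (-0.0059), and EIF5B with upper-quartile scaling (0.0058). The cause was not tested.

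The labels number the replicates 1 to 3 in both groups but do not say whether equal numbers mark paired samples. Deviations of same-numbered libraries from their group means had correlations of -0.02, -0.40 and -0.20 across genes. The highest correlations were those of control replicate 3 with CD replicate 2 (0.31) and of control replicate 2 with CD replicate 3 (0.23). With 3 libraries in a group, these values cannot decide whether the samples were paired. With the replicate block, 4 members were higher and 7 lower, while 44.5% of all tested genes were called. Settings for companion genes and pairs were added after the data were seen. The median of all tested genes moved between 0.02 and 0.09 over the settings.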
